A study of Rattus norvegicus with 8 samples.

Results

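The AP-1 transcription factor genes were followed in the striatum of rats that had self-administered methamphetamine (METH) or saline. They were taken by name from the deposited count table as the 4 genes of the Fos family (Fos, Fosb, Fosl1 and Fosl2) and the 3 genes of the Jun family (Jun, Junb and Jund). All 7 were among the 17337 genes listed and all passed the filter on low counts, which left 12014 genes. Striatal poly(A) RNA of 8 wild-type male Sprague-Dawley rats was sequenced, from 4 rats that took intravenous METH by lever press in daily sessions and 4 that took saline under the same procedures. Both groups had food training, jugular catheters with heparin and gentamycin flushes and, at the end, anesthesia with ketamine and xylazine. From larger groups, 4 rats of each kind with steady lever pressing at the end were picked for plasma samples, and the number sequenced was the same. The ages of the rats are not given in the sources used here, and neither is the time between the last session and brain collection. The family was picked for description because several of its members were already known to differ between these same rats, so that the values chosen on were the METH and saline counts. Their differences are therefore a description. No p-value is given for a single member, and counts of members past a rule are printed beside the share of all genes with nothing read from them.

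AP-1 is a dimer of leucine zipper proteins that binds the DNA motif TGANTCA. Proteins of the Fos family do not pair with each other and bind DNA mainly as partners of Jun proteins. Jun proteins can also pair among themselves, and both families can pair with some ATF and MAF proteins. Fos, Fosb and Junb are classic immediate early genes, switched on within minutes by calcium and MAP kinase signals, and in the striatum they are known to respond to dopamine and to psychostimulant drugs. Fosb also gives rise to the truncated, long-lived protein ΔFosB, which shares its gene with full-length FosB, so the gene-level counts used here do not separate the splice forms.

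Total counts lay between 18135939 and 21211920 per rat. Defining markers of striatal projection neurons were high in every rat, with a summed level from 14384 to 19184 CPM (counts relative to the normalized library total) over all 9 of 9 markers. Saline rat 1 stood apart in 4 markers of cortical neurons (Slc17a7, Tbr1, Neurod6 and Neurod2), which summed to 77.2 CPM there, to between 3.30 and 4.11 CPM in the other saline rats and to between 3.69 and 13.1 CPM in the METH rats. Each of these markers was highest in saline rat 1, and no cortex marker was at 0 in all rats. METH rat 3 stood apart from the other METH rats on the first principal component of all genes, at 39.5 against 0.257 to 5.29. Fold changes of the members are given with all rats and with single rats left out. Relations between members were recomputed without saline rat 1 but not without METH rat 3. Relations with genes outside the family were not recomputed without either of these rats. In tissue samples of this kind, fewer cells that express a gene and less RNA per cell cannot be told apart.

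Promoter sequence was looked up for the members in RefSeq (build GRCr8, 250 bases before to 50 bases after the annotated start) and was found for 5 of 7, all but Fos and Jun. The 250 bases before the start are shown for Junb and Jund, because these Jun genes lay at opposite ends of the Jun family in their difference between METH and saline rats, and for Fosl1, the Fos gene with the smallest difference. Capitals mark the cAMP response element (CRE) TGACGTCA, its core TGACG on either strand, and the TATA box TATAAA. Junb is at chr19:40080876-40081125 on the plus strand, Jund at chr16:18769772-18770021 on the minus strand and Fosl1 at chr1:212183635-212183884 on the plus strand, each written 5′ to 3′ along its gene.
Junb: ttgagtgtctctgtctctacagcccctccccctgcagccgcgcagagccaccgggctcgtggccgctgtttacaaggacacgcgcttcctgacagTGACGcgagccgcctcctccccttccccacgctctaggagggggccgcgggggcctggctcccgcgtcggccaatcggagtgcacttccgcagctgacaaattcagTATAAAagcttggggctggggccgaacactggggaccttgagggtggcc
Jund: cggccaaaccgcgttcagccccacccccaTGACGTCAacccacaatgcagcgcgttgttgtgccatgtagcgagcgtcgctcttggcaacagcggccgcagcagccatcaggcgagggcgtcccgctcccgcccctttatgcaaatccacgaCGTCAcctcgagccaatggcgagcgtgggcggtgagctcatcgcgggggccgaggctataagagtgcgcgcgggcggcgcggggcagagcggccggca
Fosl1: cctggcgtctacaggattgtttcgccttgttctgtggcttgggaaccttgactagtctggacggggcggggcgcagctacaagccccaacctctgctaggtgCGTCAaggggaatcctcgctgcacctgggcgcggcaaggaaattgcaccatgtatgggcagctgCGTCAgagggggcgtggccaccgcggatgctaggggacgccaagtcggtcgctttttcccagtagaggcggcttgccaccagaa

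The Jund promoter held a full CRE that begins 221 bases before the start, and the CRE core occurred 3 times, of which 2 overlap within the full CRE. Junb had 1 CRE core, 155 bases before the start, and a TATA box that begins 49 bases before it. In Fosl1 the CRE core was found on the other strand, at 148 and at 84 bases before the start. Fosb had a TATA box match on the other strand, 180 bases before the start, and Fosl2 had no match. The AP-1 site TGANTCA and the CArG box, the motif of serum response factor, were in none of the 5 windows. Searched on both strands in the same way, 1.83% of all 33469 promoters held the full CRE, 21.2% the CRE core, 14.2% the TATA box, 7.33% the AP-1 site and 1.64% the CArG box. These are matches of letters in a short window and do not show binding.

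Among the Fos genes, Fos, Fosb and Fosl2 were higher in METH rats and Fosl1 was not. Fos encodes the founding partner of Jun in AP-1. Its level was 21.1, 8.20, 5.36 and 7.99 CPM in saline rats 1 to 4 and 35.9, 21.4, 33.8 and 46.9 CPM in METH rats 1 to 4, from raw counts of 111 to 889. The groups did not overlap, but they nearly touched, since the lowest METH rat was only 1.01 times the highest saline rat, which was the saline rat with cortex markers. The log2 fold change of METH over saline was 1.70 (standard error 0.34), or 3.25-fold, with a saline mean of 10.7 ± 7.07 CPM (SD, n = 4) and a METH mean of 34.5 ± 10.4 CPM (SD, n = 4). Without saline rat 1 the saline mean was 7.18 ± 1.58 CPM (SD, n = 3) and the log2 fold change was 2.26 (standard error 0.24), or 4.80-fold. The part of cortical RNA in the level of saline rat 1 was not tested.

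Fosb, the gene of full-length FosB and of ΔFosB, the stable form known to accumulate with repeated drug exposure, was at 27.7, 19.3, 16.6 and 19.0 CPM in saline rats 1 to 4 and at 38.3, 43.3, 60.1 and 56.2 CPM in METH rats 1 to 4. Every METH rat was above every saline rat, and the highest saline rat was again rat 1. The log2 fold change was 1.26 (standard error 0.17), or 2.40-fold, and it was 1.43 without saline rat 1. In the GRCr8 gene table the span of a long noncoding RNA gene, LOC103691049, overlaps that of Fosb, and the library kit does not mark strand. The deposited counts have no row for LOC103691049, and whether its reads were counted for Fosb was not tested.

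Fosl2, which encodes Fra-2, a Fos protein that lacks the strong activation domain of Fos, had the widest separation of the family. It was at 5.71, 3.10, 5.99 and 4.39 CPM in saline rats 1 to 4 and at 17.6, 19.7, 21.0 and 21.0 CPM in METH rats 1 to 4. The lowest METH rat had 2.94 times the level of the highest saline rat. The log2 fold change was 2.05 (standard error 0.19), or 4.13-fold, the highest of the 7 members with all rats. It was 2.14 without saline rat 1, below the 2.26 of Fos without that rat. The METH rats were also close to each other, with a coefficient of variation of 8.03% against 30.3% for Fos in the same rats.

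Fosl1, which encodes Fra-1, was at 7.41, 7.45, 7.20 and 5.10 CPM in saline rats 1 to 4 and at 5.33, 5.66, 7.06 and 7.06 CPM in METH rats 1 to 4. The groups overlapped throughout. Its log2 fold change was -0.11 (standard error 0.19), so the difference was smaller than its error. Raw counts were between 108 and 149 in all rats, a depth similar to that of Fosl2 in saline rats, which had 62 to 124.

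In the Jun family the order of the differences was Junb, Jun and Jund. Junb, an inducible Jun protein with weaker activity on its own than c-Jun, was at 258.4, 157.6, 144.5 and 150.1 CPM in saline rats 1 to 4 and at 506.1, 352.5, 553.7 and 592.4 CPM in METH rats 1 to 4. All METH rats were above all saline rats, with saline rat 1 the highest of its group. The log2 fold change was 1.50 (standard error 0.19), or 2.82-fold, with means of 177.7 ± 54.1 CPM (SD, n = 4) for saline and 501.2 ± 105.2 CPM (SD, n = 4) for METH. Without saline rat 1 it was 1.73 (standard error 0.15), or 3.32-fold, and the SD of the saline rats was 6.58 CPM (n = 3).

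Jun, which encodes c-Jun, the target of the JNK kinases, differed less. Saline rats 1 to 4 were at 72.7, 67.2, 68.4 and 59.6 CPM and METH rats 1 to 4 at 103.2, 69.1, 91.8 and 84.0 CPM. The groups overlapped by 1 rat, since METH rat 2 lay between the saline rats and METH rat 1 was the highest of all. The log2 fold change was 0.38 (standard error 0.11), or 1.30-fold, and it ranged from 0.28 without METH rat 1 to 0.47 without METH rat 2. When saline rat 1 was set aside, the 4 METH rats were all above the other saline rats, as in 5.96% of all genes. The groups then nearly touched, at 69.1 CPM in METH rat 2 and 68.4 CPM in saline rat 3.

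Jund, which is expressed at a steady level in most tissues and is the least inducible Jun gene, was at 442.1, 481.0, 467.4 and 414.3 CPM in saline rats 1 to 4 and at 434.0, 454.3, 534.1 and 444.4 CPM in METH rats 1 to 4. The groups overlapped, and the highest value was that of METH rat 3. The log2 fold change was 0.05 (standard error 0.08), and it changed sign to -0.02 without METH rat 3. Saline rat 1, high in Fos, Fosb and Junb, had 0.973 times the mean Jund level of the other saline rats.

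**Figure D1:**
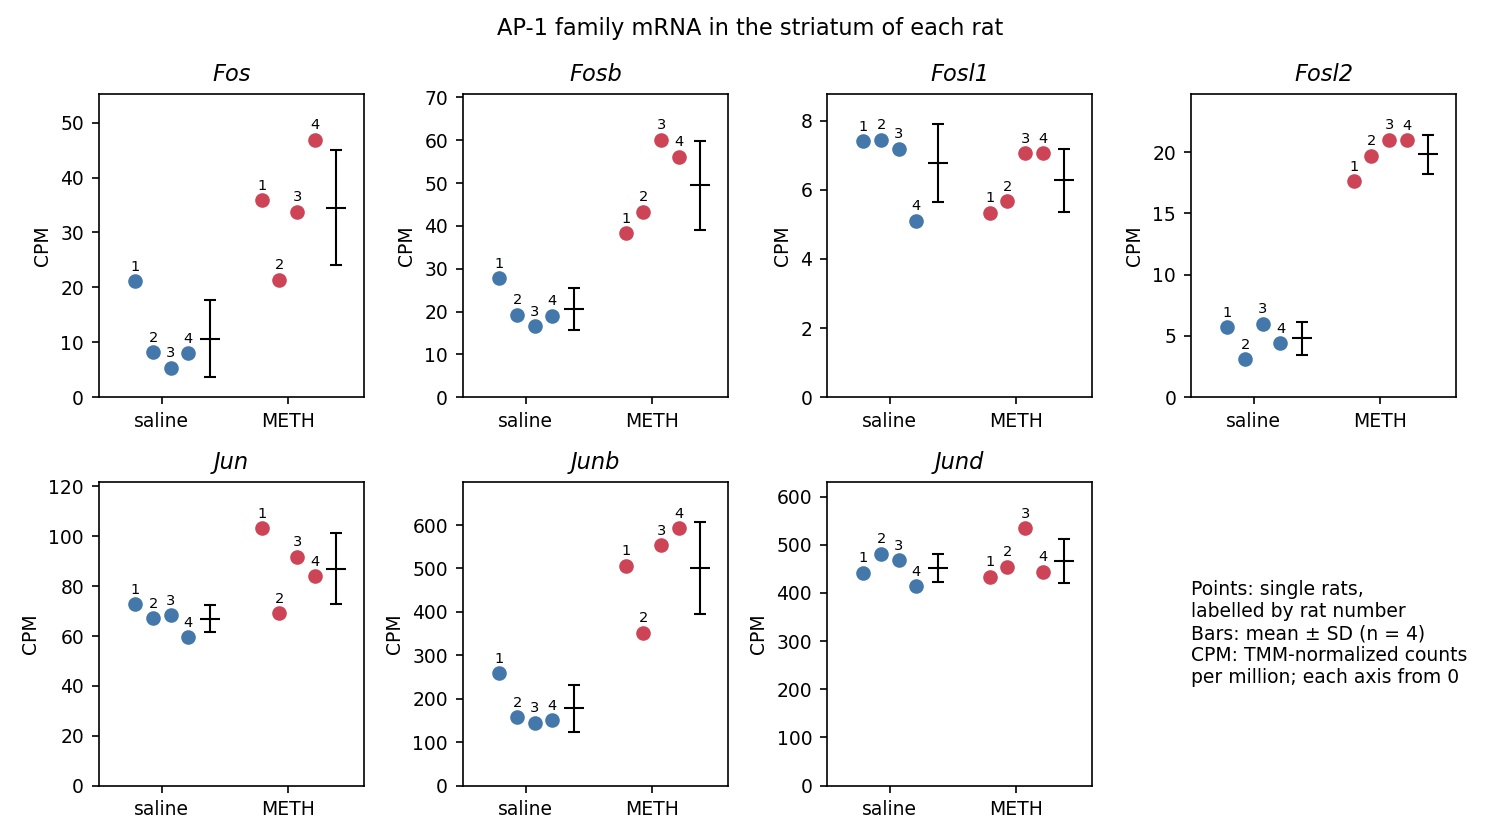
Level of each AP-1 gene in each rat, in CPM on axes that start at 0, with saline rats in blue, METH rats in red and rat numbers above the points; bars give the mean ± SD (n = 4). Fos, Fosb, Fosl2 and Junb do not overlap between the groups, and saline rat 1 is the highest saline rat for Fos (21.1 CPM), Fosb (27.7 CPM) and Junb (258.4 CPM).

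Taken as a list, the members had a median log2 fold change of 1.26, against -0.01 over all genes tested. With the call rule of an FDR below 0.05 in the quasi-likelihood test of edgeR and a mean log2 CPM above 1, 4 of the 7 (Fos, Fosb, Fosl2 and Junb) were called higher and 0 lower, where 0.449% of all genes tested were called higher and 0.0666% lower. At an unadjusted p below 0.05 in edgeR, 5 members were higher and 0 lower, beside 6.26% and 4.88% of all genes. DESeq2 called 4 members higher and 0 lower, beside 1.17% and 0.416% of all genes, and limma-voom 4 and 0, beside 0.425% and 0.0749%. In 4 of 7 members all METH rats were above all saline rats, as in 3.75% of all genes tested, and in 0 of 7 all METH rats were below, against 2.65%. Without saline rat 1 this held for 5 of 7 members, the added one being Jun, against 5.96% of all genes. With 1 rat left out, Fosb, Fosl2 and Junb met the call rule in 8 of 8 fits and Fos in 2 of 8, those without saline rat 1 and without METH rat 2. The family was chosen on this contrast, so that nothing is read from these counts.

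**Figure D2:**
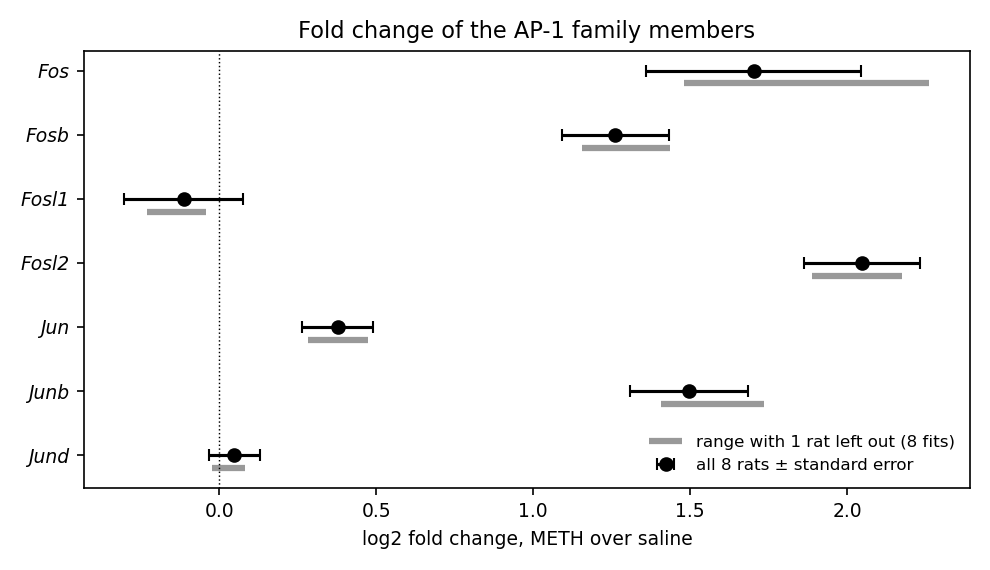
Log2 fold change of METH over saline for each AP-1 gene (points, with standard errors as bars, all 8 rats) and the range of the value when each rat is left out in turn (grey bars, 8 fits). Fosl2 is highest at 2.05, Fos has the widest range, 1.48 to 2.26, and the values of Fosl1 and Jund lie within their standard errors of 0.

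The rats of a group also differed from each other, and this spread was taken within each group. In saline rats the coefficient of variation was 66.3% for Fos, 30.4% for Junb, 27.7% for Fosl2, 23.6% for Fosb and 16.6% for Fosl1. The median over all genes tested was 11.4%, and Jun (8.17%) and Jund (6.52%) were below that median. Without saline rat 1 the coefficient was 22.0% for Fos, 32.2% for Fosl2 and 19.6% for Fosl1. Junb (4.37%) and Fosb (8.19%) were then below the median over all genes of 10.8%, as were Jun (7.38%) and Jund (7.76%). In METH rats the coefficient was 30.3% for Fos, 21.0% for Junb, 20.9% for Fosb, 16.5% for Jun and 14.5% for Fosl1. These values were above the median over all genes in METH rats, while Jund (9.79%) and Fosl2 (8.03%) were below it. METH rat 2 had the lowest Fos, Jun and Junb of the METH rats, and METH rat 4 the highest Fos and Junb.

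To ask whether members varied together from rat to rat, log2 CPM was taken as the deviation from the mean of each rat's own group and compared for all 21 pairs of members over the 8 rats. Fos and Junb had the highest relation, with a Pearson r of 0.95 (exact permutation within groups, two-sided p = 0.00521, 0.109 after Benjamini-Hochberg adjustment over the 21 pairs) and a Spearman rho of 0.95 (exact permutation p = 0.00694, adjusted 0.146). The smallest p that the 576 arrangements allow is 0.00174. The r was 0.95 without the 2 rats farthest from the median of Fos and 0.88 without saline rat 1. Fosb had an r of 0.79 with Junb and of 0.77 with Fos, which were 0.58 and 0.50 without saline rat 1. Fosl2, although separated most between the groups, had an r of 0.16 with Fos and 0.29 with Junb, which became -0.38 and -0.06 without saline rat 1. Jund had an r of -0.17 with Fos, and of -0.15 without that rat. No pair passed after adjustment, and 1 of 21 had an unadjusted p below 0.05, in a test that was chosen after the counts were seen.

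**Figure D3:**
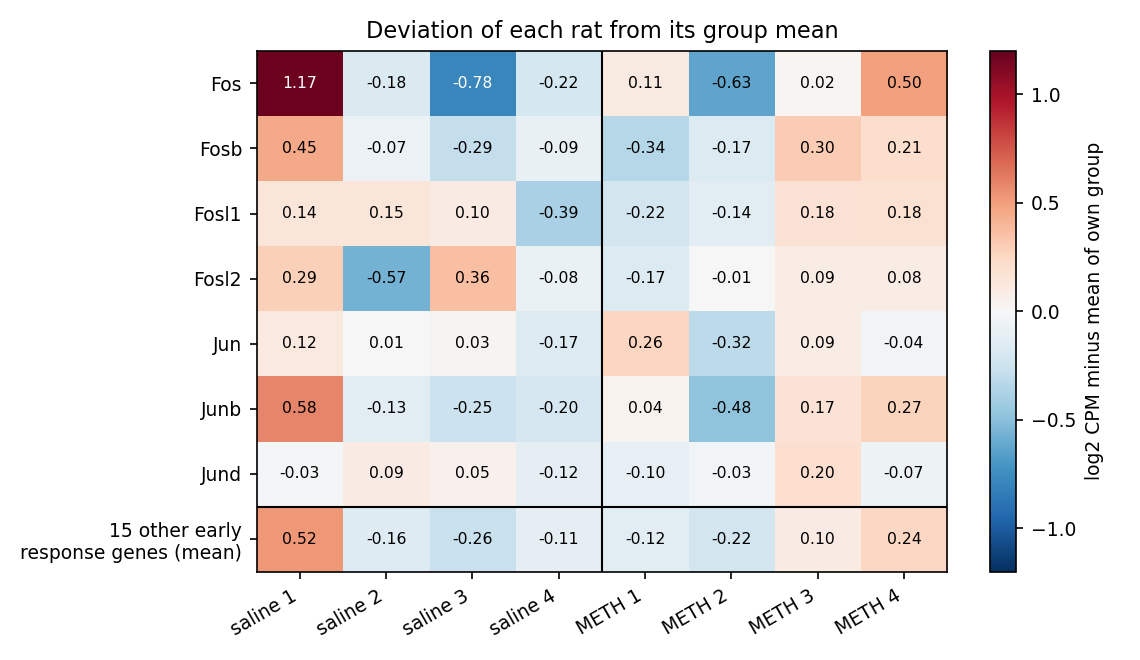
Deviation of log2 CPM from the mean of each rat's own group for the 7 AP-1 genes (rows) and, in the last row, the mean over 15 other early response genes. Columns are single rats, red is above and blue below the group mean. Fos in saline rat 1 deviates most, by 1.17, and METH rat 2 is below its group mean for all 7 members.

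**Figure D4:**
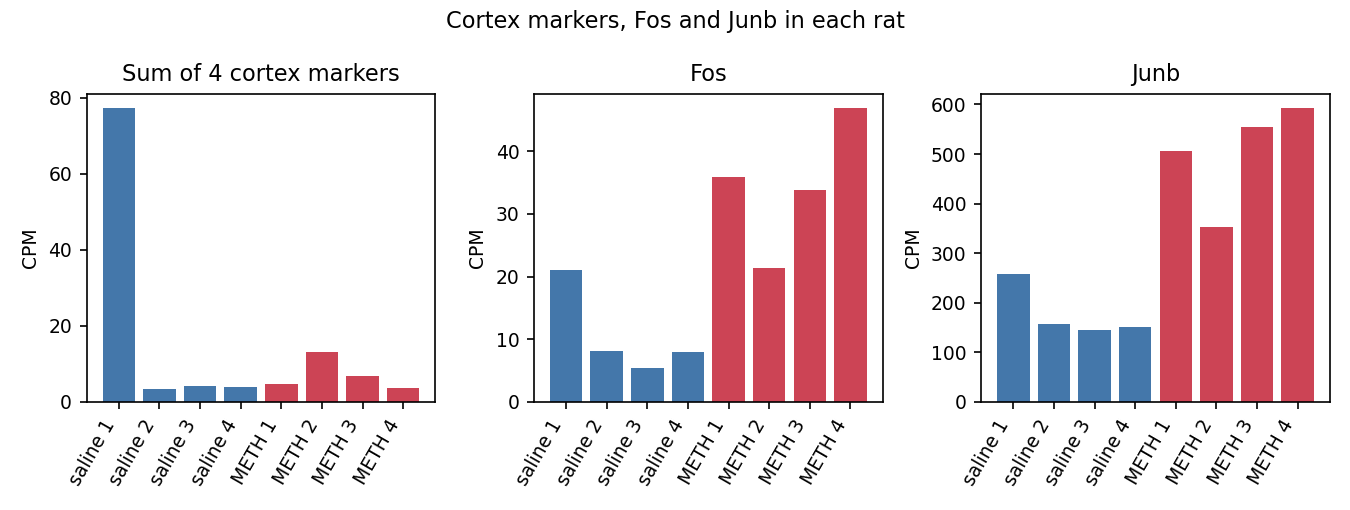
Sum of 4 cortex markers, Fos and Junb in each rat, in CPM, with saline rats in blue and METH rats in red. Saline rat 1 has 77.2 CPM of cortex markers and the highest Fos and Junb of the saline rats. The METH rats have 3.69 to 13.1 CPM of cortex markers. Their Fos and Junb lie above those of every saline rat, but for Fos the lowest METH rat has only 1.01 times the highest saline rat. The part of cortical RNA in these levels was not tested.

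The genes whose rat-to-rat deviations were most like those of Fos, among 10970 genes with a mean log2 CPM above 1, were Arc (r = 0.99), Reep5 (0.98), Ndufa5 (0.97), Hadhb (0.97) and Egr2 (0.97), over 8 rats. Arc, an activity-regulated synaptic protein, and Egr2, a zinc finger factor, are themselves immediate early genes, and with the group difference kept in the data their r with Fos was 0.99 and 0.98. Reep5, which shapes the endoplasmic reticulum, had an r of 0.26 when the group difference was kept, and its log2 fold change was -0.03. Ndufa5 encodes a subunit of respiratory complex I and Hadhb an enzyme of mitochondrial fatty acid oxidation. With the group difference kept, the r with Fos was 0.82 for Ndufa5 and 0.59 for Hadhb. For Jund the most similar genes were Fam19a5 (r = 0.99), Tnip1 (0.99), Sap30bp (0.98), Med9 (0.98) and Msra (0.98). None of these was called between METH and saline rats by edgeR, with log2 fold changes from -0.20 for Msra to 0.12 for Fam19a5. These r values are the top of many over few rats that share library depth and dissection, and serve as a description.

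The rest of the AP-1 pathway was described from lists of textbook genes, which were chosen with earlier results of these data known. Of 12 genes for other dimer partners, 9 were tested, with a median log2 fold change of 0.06, and none was called by edgeR. At an unadjusted p below 0.05, 2 were higher and 0 lower, where 6.26% of all genes were higher and 4.88% lower. DESeq2, which called 1.17% of all genes higher, called 1 of the list, and limma-voom called 0. Mafk, a small MAF protein, was at 20.7 CPM in saline rats and 27.4 CPM in METH rats (log2 fold change 0.40, standard error 0.11, FDR = 0.173 in the quasi-likelihood test of edgeR) and was the gene called by DESeq2. Maff and Mafg had log2 fold changes of 0.74 (FDR = 0.430) and 0.19 (FDR = 0.449) in the same test, and Atf4, a factor of the integrated stress response, had 0.20 (FDR = 0.467).

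Upstream of AP-1, 18 of 20 listed kinases and transcription factors were tested and none was called by edgeR, with a median log2 fold change of -0.08. At an unadjusted p below 0.05, 1 was higher and 3 were lower (6.26% and 4.88% of all genes). DESeq2 called 1, Srf, where it called 1.17% of all genes higher, and limma-voom called 0. Srf encodes serum response factor, which binds the CArG box, and every METH rat was above every saline rat, as in 3.75% of all genes, with 172.2 CPM in saline and 219.2 CPM in METH rats (log2 fold change 0.35, standard error 0.08, FDR = 0.0720, edgeR). It was called by edgeR when saline rat 3 was left out, with an FDR of 0.0475. The genes with an unadjusted p below 0.05 on the lower side were Elk3, a ternary complex factor that works with Srf (log2 fold change -0.40, FDR = 0.345), the ribosomal S6 kinase Rps6ka1 (-0.29, FDR = 0.358) and Mapk8, which encodes the kinase JNK1 (-0.25, FDR = 0.383), all by edgeR. For Rps6ka1 and Mapk8 the METH rats all lay below the saline rats, as in 2.65% of all genes.

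Of 10 genes that act on the turnover of AP-1 proteins or of their mRNA, 9 were tested, and edgeR, DESeq2 and limma-voom called 0, with 0 at an unadjusted p below 0.05. Their log2 fold changes lay between -0.17 for Zfp36, an RNA-binding protein that promotes decay of unstable mRNAs, and 0.14 for Det1, a part of the ubiquitin ligase that acts on c-Jun. Usp28, a deubiquitinase, and Zfp36l1, a relative of Zfp36, were at 0.09 (FDR = 0.787) and 0.07 (FDR = 0.799) in the edgeR test.

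Genes known as AP-1 targets were compared in the same fit. Among 9 tested genes that have been described as targets of FosB in the striatum, edgeR, DESeq2 and limma-voom called 0, and 2 were higher at an unadjusted p below 0.05 (Pdyn and Cdk5), as were 6.26% of all genes. Pdyn, which encodes the precursor of dynorphin, was at 355.5 CPM in saline and 409.0 CPM in METH rats (log2 fold change 0.20, standard error 0.08, FDR = 0.369, edgeR). Cdk5, a neuronal kinase, had a log2 fold change of 0.22 (FDR = 0.391), the histone methyltransferase gene Ehmt2 0.13 (FDR = 0.537) and Gria2, an AMPA receptor subunit, -0.15 (FDR = 0.673), all by edgeR. Among 9 tested of 11 general AP-1 targets, 0 were called by edgeR, DESeq2 or limma-voom and 1 was higher at an unadjusted p below 0.05 (6.26% of all genes). This was Plaur, the urokinase receptor, where all METH rats were above all saline rats at a low level of 0.477 CPM in saline and 1.64 CPM in METH rats (log2 fold change 1.78, standard error 0.52, FDR = 0.219, edgeR). Its mean log2 CPM of 0.21 is below the minimum of the call rule. The peptide genes Nts (neurotensin) and Penk (proenkephalin) had log2 fold changes of 0.41 (FDR = 0.486) and 0.14 (FDR = 0.562), and Vim, an intermediate filament gene, had 0.20 (FDR = 0.537), in the same test.

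In a list of 15 other early response genes, 8 were called higher by edgeR (Nr4a3, Egr4, Ier5, Nr4a1, Egr1, Egr2, Arc and Dusp5) and 0 lower, where 0.449% of all genes were called higher. At an unadjusted p below 0.05, 10 were higher and 1 lower, beside 6.26% and 4.88% of all genes. DESeq2 and limma-voom each called 8 higher and 0 lower, beside 1.17% and 0.425% of all genes called higher. This list too was chosen with earlier results of these data known, so nothing is read from its counts. The median log2 fold change of the list was 1.06, and the called genes ran from 1.02 for Egr1 to 2.75 for Nr4a3. As with Fosl1, Jun and Jund, some members of the list, 7 in number, were not called. The 3 with negative values were Ier2 (log2 fold change -0.24, standard error 0.29), Ier3 (-0.71, standard error 0.21) and Nr4a2 (-1.12, standard error 0.65). The others were positive, with Npas4 at 1.63 (standard error 0.36, FDR = 0.0827, edgeR), Dusp1 at 0.88, Egr3 at 0.21 and Btg2 at 0.08. For Npas4 all METH rats were above all saline rats, as in 3.75% of all genes. These uncalled genes were named after their values were seen. The value of Nr4a2 rests on saline rat 1, at 11.0 CPM, since the other saline rats were at 1.32 to 1.59 CPM and the METH rats at 0.685 to 2.48 CPM. In saline rat 1, which had the most Fos, Fosb and Junb of its group, 9 of these 15 genes were also the highest of the saline rats, and their mean log2 CPM was 0.52 above the group mean. Without this rat 9 of the 15 were called higher, with Dusp1 added, where 49 of all 12100 genes tested in that fit were called higher. In METH rat 2, 10 of 15 were the lowest of the METH rats.

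**Figure D5:**
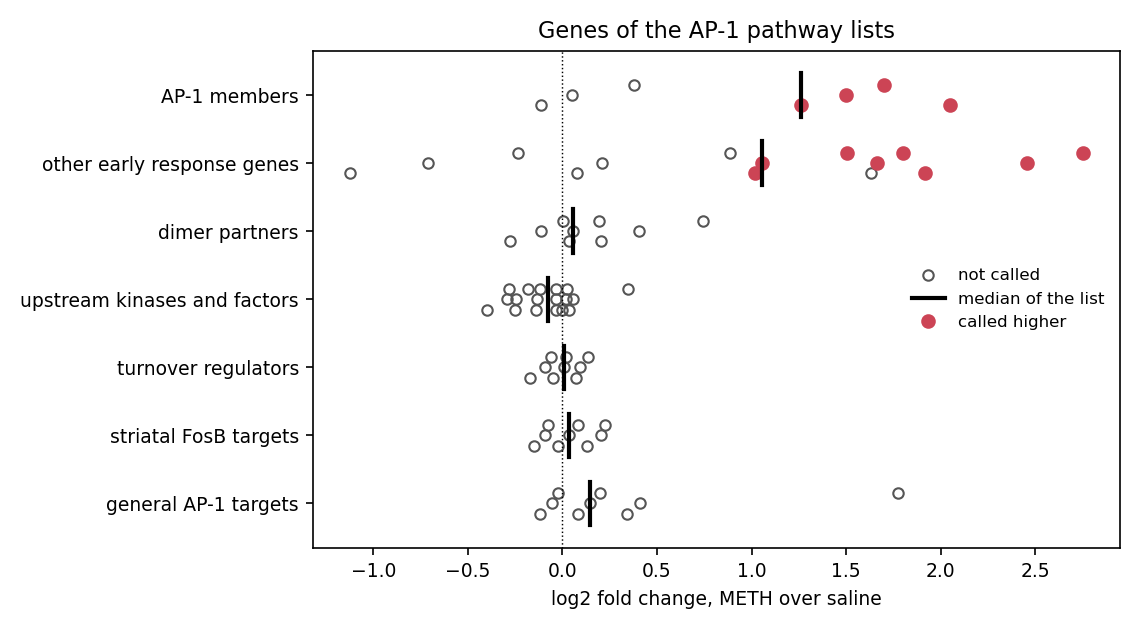
Log2 fold change of METH over saline for each tested gene of the 7 AP-1 members and 6 lists around them (points); filled red points were called higher by edgeR, open points were not called, and black lines give the median of each list. Called genes are found among the AP-1 members (4) and the other early response genes (8), where 0.449% of all genes were called higher. The members and lists were chosen with earlier results of these data known. The medians of the other 5 lists lie between -0.08 and 0.14.

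Markers of other cells were compared beside these results. Of 9 projection neuron markers 0 were called by edgeR and 2 were higher at an unadjusted p below 0.05, beside 6.26% of all genes. Their summed level was 14384 to 15340 CPM in saline and 15151 to 19184 CPM in METH rats, or to 16474 CPM without METH rat 3. The 5 astrocyte markers summed to 1905 to 2133 CPM in saline and 1784 to 2329 CPM in METH rats, and the 5 oligodendrocyte markers to 12112 to 17552 CPM and 11514 to 17154 CPM. All 5 microglial markers had negative log2 fold changes, from -0.73 to -0.20. Of these 1, Cx3cr1, was called lower by edgeR, beside 0.0666% of all genes, and 2 were lower at an unadjusted p below 0.05, beside 4.88%. Their summed level was 229.0 to 268.5 CPM in saline and 187.5 to 233.2 CPM in METH rats. The 4 endothelial markers found summed to 368.7 to 535.8 CPM in saline and 370.1 to 396.9 CPM in METH rats. All 4 had negative log2 fold changes, and 2 were lower at an unadjusted p below 0.05, beside 4.88% of all genes. The choroid plexus markers summed to 2.14 to 4.15 CPM in saline and 4.43 to 5.78 CPM in METH rats. These low sums did not overlap, and Otx2 was at 0 in all rats. Of the 5 markers only 1, Folr1, passed the filter on low counts. For Folr1 the groups overlapped (log2 fold change 0.45, FDR = 0.525, edgeR). Blood markers summed to 133.2 to 255.7 CPM in saline and 126.4 to 240.9 CPM in METH rats, with Hba1 at 0 in all rats. The part of these cells in the differences of the AP-1 genes was not tested.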

How the data were processed

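Striatal mRNA of 8 rats, 4 METH and 4 saline, was analysed, with groups and rat numbers taken from the sample labels. The authors isolated poly(A) RNA, made TruSeq libraries, used Cutadapt 1.18 to trim paired-end reads, STAR 2.7.0e for alignment to the rn6 build and featureCounts of Subread 1.6.4 to count reads per gene, with builds and versions from the submitters' processing notes. The deposited values are raw counts per gene symbol, 1 column per rat. The annotation, strand setting and treatment of multi-mapping reads are not given in the sources used here.

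Genes were filtered with filterByExpr of edgeR 4.0.16 (R 4.3.3, minimum count 10), normalized by TMM and compared by the quasi-likelihood F-test with Benjamini-Hochberg adjustment. CPM values use TMM-scaled library sizes, log2 CPM a prior count of 2 and fold changes a prior count of 0.125. Standard errors were derived as the absolute log2 fold change over the root of the F statistic. Called genes had an FDR under 0.05 and an average log2 CPM over 1. DESeq2 1.42.0, limma-voom (limma 3.58.1), RLE and total-count scaling, no filter, another prior count, each rat left out and a replicate block were the alternatives. The fit was tested on simulated counts. Total counts, from 18135939 to 21211920, and 4 rats per group limit the precision. Counts of rats in 1 group differed beyond sampling noise in every pair, with chi-square over its degrees of freedom at 10.4 to 28.6.

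The members and lists were chosen with earlier results of these data known. Named in each list were the called genes, otherwise up to 4 with the smallest p, and the 5 genes most like Fos and like Jund. Batf2, Fbxw7, Sirt1, Mrtfa, Mrtfb, Slco1a4 and Hba-a1 were not analysed here, since no row was found under their symbols. Batf, Batf3, Mmp3 and Mmp13 did not pass the filter, and some listed genes are not reported here. Promoters come from RefSeq on GRCr8, another build than rn6, and levels were not compared between genes because transcript lengths were not used here.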

Additional observations from a re-analysis of the deposited data

Results flagged for a closer look

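For the 4 rats of a group, the space separating the outermost rat from the next was divided by the full spread of log2 CPM. This share passed Dixon's critical value in 8 of 70 gene and group combinations, where chance gives about 5%, and in 2 of 8 for library measures.

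Junb stood apart in saline rat 1 (share 0.851), the rat with the highest cortex markers, and so did Dusp5 in the same rat (0.852). Fosl1 was apart in saline rat 4 (0.909), which had 5.10 CPM against 7.20 to 7.45 CPM in the other saline rats. Among the genes around AP-1, Zfp36l1 was apart in saline rat 4 (0.953), Srf in saline rat 3 (0.831), Det1 in METH rat 4 (0.925), Usp28 in METH rat 1 (0.864) and Vim in METH rat 1 (0.861). Of the library measures, the number of genes with a count was apart in saline rat 2 (0.872) and the first principal component in METH rat 3 (0.872). Without saline rat 1 the log2 fold change of Junb was 1.73, and without saline rat 4 that of Fosl1 was -0.23.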

How the results depend on the processing

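Over 15 alternatives, the log2 fold changes of Fos, Fosb, Fosl2, Jun and Junb were positive and that of Fosl1 negative. Each of the 7 members moved by less than its SD between rats of a group. That SD includes the rat that is left out, so a fit without 1 rat could hardly move further. No stability is read from this. Jund was positive in 14 of 15 and -0.02 without METH rat 3. With a rat left out, Fos ranged from 1.48 to 2.26, Fosb from 1.16 to 1.43, Fosl1 from -0.23 to -0.04, Fosl2 from 1.89 to 2.17, Jun from 0.28 to 0.47, Junb from 1.41 to 1.73 and Jund from -0.02 to 0.08. Fos lost its call with total-count scaling and in 6 of 8 fits with a rat left out (saline rats 2, 3 and 4 and METH rats 1, 3 and 4), which left 3 members called. The cause was not tested.

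DESeq2 called 1 of the dimer partners higher (Mafk, FDR 0.0492) and 1 of the upstream genes (Srf, FDR 0.00140), where edgeR called 0 of each, and with a rat left out the upstream genes called higher ranged from 0 to 1. Over all genes, 62 were called in the main comparison, 191 with DESeq2, 37 with the replicate block and 37 to 70 with a rat left out (37 without saline rat 2). Same-numbered rats are different animals and share only a number. The correlation of their deviations was -0.09 on average over 4 pairs, and 2 of 8 rats were most like the rat of their own number. With the replicate block 4 members were called higher, beside 35 of all 12014 genes tested, and the log2 fold change of Fos was 1.82. At this depth Plaur and the cortex markers other than Slc17a7 rest on few counts.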
